A study of Mus musculus with 2 samples.

Results

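The MS4A genes encode membrane proteins that cross the cell membrane several times, and each blood cell lineage uses its own members. The best known member is Ms4a1, which encodes CD20, the B cell surface protein targeted by therapeutic antibodies. The beta chain of the high-affinity IgE receptor of mast cells, encoded by Ms4a2, belongs to the same family, and several other members are known from monocytes and macrophages or from T cells. The genes described here are Ms4a1, Ms4a4a, Ms4a4b, Ms4a4c, Ms4a4d, Ms4a6b, Ms4a6c, Ms4a6d, Ms4a7 and Ms4a8a. They were found by their gene name on the array, among probes that are not controls, which gave 10 genes with 14 probes of 24892 named genes.

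The samples were S100A4-positive cells and S100A4-negative cells of Peyer's patches, clusters of lymphoid follicles in the wall of the small intestine. Both came from C57BL/6 mice that carry an S100A4-GFP transgene, were released by enzyme digestion and were separated by flow sorting. S100A4 is a small calcium-binding protein, and the comparison asks how expression differs between cells sorted as positive and as negative for it. Each group had 1 array, and the age of the mice, their number and whether animals were pooled are not given in the sources used here. No difference has a replicate check, and no p-value can be given, so each ± below is the scanner software's error for the spots and does not cover variation between mice or sorts. Counts past a fixed size of 2-fold stand in for tests.

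On the positive array 31042 spots (52.3%) were well above background, and on the negative array 31595 (53.3%), with 0 saturated on both. The 75th percentile of the signal was 287.3 on the positive array and 445.9 on the negative array. Each log2 difference is S100A4-positive minus S100A4-negative after each array was divided by its own 75th percentile, so equal raw signals give a difference above 0. S100a4 itself had a signal of 119341 in positive cells and 1057 in negative cells, a difference of 7.45 ± 0.20. Its RNA was thus lower in the negative cells but still well above background there. In these bulk samples, fewer cells of a type and less RNA per cell cannot be told apart.

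Members of the family differed in both directions. Of the 10 members, 9 were well above background on both arrays. At least 2-fold higher in S100A4-positive cells were 5 of them, Ms4a7, Ms4a6d, Ms4a6c, Ms4a4a and Ms4a8a, where 21.4% of all 15278 measured genes were. At least 2-fold lower were 2 of the 9, Ms4a1 and Ms4a4b, a share near the 17.0% of all genes. Ms4a6b and Ms4a4c lay within 2-fold, and Ms4a4d was not well above background on either array. The median difference of the 9 was 1.13, against 0.01 over all measured genes. That median includes Ms4a4c, whose value cannot be assigned to the gene, as described below.

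**Figure D1:**
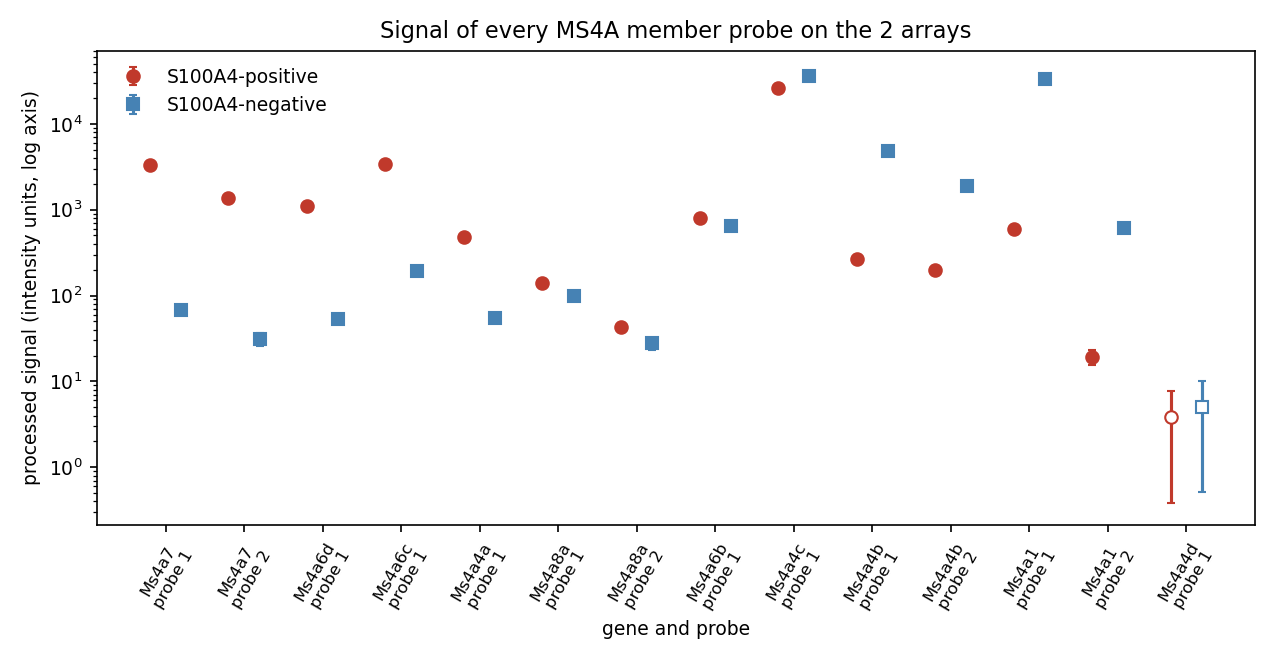
Processed signal (vertical log axis, intensity units, before scaling between arrays) of each of the 14 member probes, with S100A4-positive cells as circles, S100A4-negative cells as squares, and bars for the scanner error. The signal of Ms4a7 was 3341 in positive and 67.4 in negative cells, that of Ms4a1 588 in positive and 33700 in negative cells, and the open symbols of Ms4a4d were not well above background, with their lower bars cut short because they reach 0.

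The B cell member, Ms4a1, had the largest difference towards the negative cells. Its brighter probe (chr19:11325409-11325468, minus strand) had a signal of 588 in S100A4-positive cells, against 33700 in S100A4-negative cells. The difference was -5.21 ± 0.20, or 36.9-fold lower. The second probe (chr19:11324334-11324393) read 19.5 in positive cells and 612 in negative cells, a difference of -4.34 ± 0.32. The 2 probes thus gave the same direction, but their estimates lay further apart than their scanner errors. By its brighter probe, only 0.231% of the 12970 genes measured on both arrays had a lower value than Ms4a1. All probe positions are given on mouse build mm9 (NCBI build 37), as annotated by the array's maker in the deposited files.

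Ms4a4b, known from T cells, was also lower in the positive cells. Its brighter probe (chr19:11537629-11537688, plus strand) read 268 in S100A4-positive cells, against 4776 in S100A4-negative cells, a difference of -3.52 ± 0.21 (11.5-fold lower). The second probe read 198 in positive cells and 1901 in negative cells, and its difference was smaller, at -2.63 ± 0.21. Both probes put the gene well past 2-fold, while the 2 estimates lay further apart than their scanner errors.

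The members with the largest differences towards the positive cells are known from macrophages and monocytes. Ms4a7 led, with 3341 in S100A4-positive cells and 67.4 in S100A4-negative cells at its brighter probe (chr19:11395903-11395962, minus strand). That is a difference of 6.27 ± 0.22 (77.0-fold higher), and the second probe, with 1363 in positive and 31.4 in negative cells, gave 6.07 ± 0.28. The 2 Ms4a7 probes differed by less than their errors, and 0.463% of genes measured on both arrays had a higher value.

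Ms4a6d (chr19:11661601-11661660, minus strand) had a signal of 1107 in S100A4-positive cells, against 53.6 in S100A4-negative cells, a difference of 5.00 ± 0.22 (32.0-fold higher). Ms4a6c (chr19:11545580-11545639, plus strand) read 3375 in positive cells and 194 in negative cells, a difference of 4.75 ± 0.21 (27.0-fold higher). These close relatives, each read by 1 probe, differed from each other by less than their combined error. Ms4a4a (chr19:11467221-11467280, plus strand), whose protein has been described in macrophages as a partner of the beta-glucan receptor dectin-1, read 476 in positive cells and 54.4 in negative cells, a difference of 3.76 ± 0.23 (13.6-fold higher).

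Ms4a8a and Ms4a6b lay near the 2-fold size. Ms4a8a, reported in alternatively activated macrophages, read 138 in S100A4-positive cells and 98.2 in S100A4-negative cells, a difference of 1.13 ± 0.21 (2.19-fold higher). Its second probe, much dimmer, read 43.1 in positive and 27.7 in negative cells, a difference of 1.27 ± 0.29. Ms4a6b read 807 in positive cells and 644 in negative cells, a difference of 0.96 ± 0.20 (1.94-fold). Both lie within their scanner error of 2-fold, so which side they fall on is not settled by these arrays. Of 11 alternative settings, 6 kept Ms4a8a at least 2-fold higher, 4 put it within 2-fold and scaling on spike-in controls put it at least 2-fold lower. Those 6 include the stricter filter, no filter and kept outlier spots, which left both genes as reported. Ms4a6b was at least 2-fold higher under 2, within 2-fold under 8 and at least 2-fold lower under spike-in scaling.

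Ms4a4d, the last member, had signals of 3.81 in positive cells and 5.09 in negative cells. Neither was well above background, so no fold is given.

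The value of Ms4a4c cannot be assigned to that gene. Its only probe (chr19:11500839-11500898, plus strand) read 26213 in S100A4-positive cells and 36183 in S100A4-negative cells, a difference of 0.17 ± 0.20. Of the 60 bases of the probe, 28 form 1 unbroken TG repeat. The first 30 bases of this probe are shown beside those of the brighter probes of Ms4a4b, Ms4a1 and Ms4a7, to show what the array read for the members at the ends of the range. Capitals mark the TG repeat.
Ms4a4c: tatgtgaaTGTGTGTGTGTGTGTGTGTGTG
Ms4a4b: cacttcattgcactggcttttgaggtgaat
Ms4a1: cagaaatgtaatgggttcccagatctcaaa
Ms4a7: agcagagtacagctagacttgcctgaaatc

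A run of at least 20 bases of the Ms4a4c probe was also found in 54 probes of other genes or of no named gene. All 54 were well above background on both arrays and all lay within 2-fold, with differences between -0.12 and 0.83 and a median of 0.32. Their median signal was 13589 in positive cells and 16979 in negative cells. The other 13 member probes shared at most 16 bases with a probe of another gene, and probes of different members shared at most 8. Without Ms4a4c, 8 members were measured, and the counts of 5 higher and 2 lower did not depend on it. The median of 1.13 given above does depend on it.

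The members lie together on chromosome 19, at chr19:11142131-11661660 in mm9, a span of 519.5 kb with 6 genes on the plus strand and 4 on the minus strand. In the order of the chromosome they run Ms4a8a, Ms4a1, Ms4a7, Ms4a4a, Ms4a4c, Ms4a4b, Ms4a6c, Ms4a6b, Ms4a4d and Ms4a6d. Some neighbours took opposite directions, while others, such as Ms4a7 and Ms4a4a, were both higher in the positive cells. The probes of Ms4a1, 36.9-fold lower in the positive cells, and Ms4a7, 77.0-fold higher, lie 70.4 kb apart. The probes of Ms4a4b, 11.5-fold lower, and Ms4a6c, 27.0-fold higher, lie 7.89 kb apart. The genes higher in positive cells thus do not form 1 block along the cluster, as the plot by chromosome order shows.

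**Figure D2:**
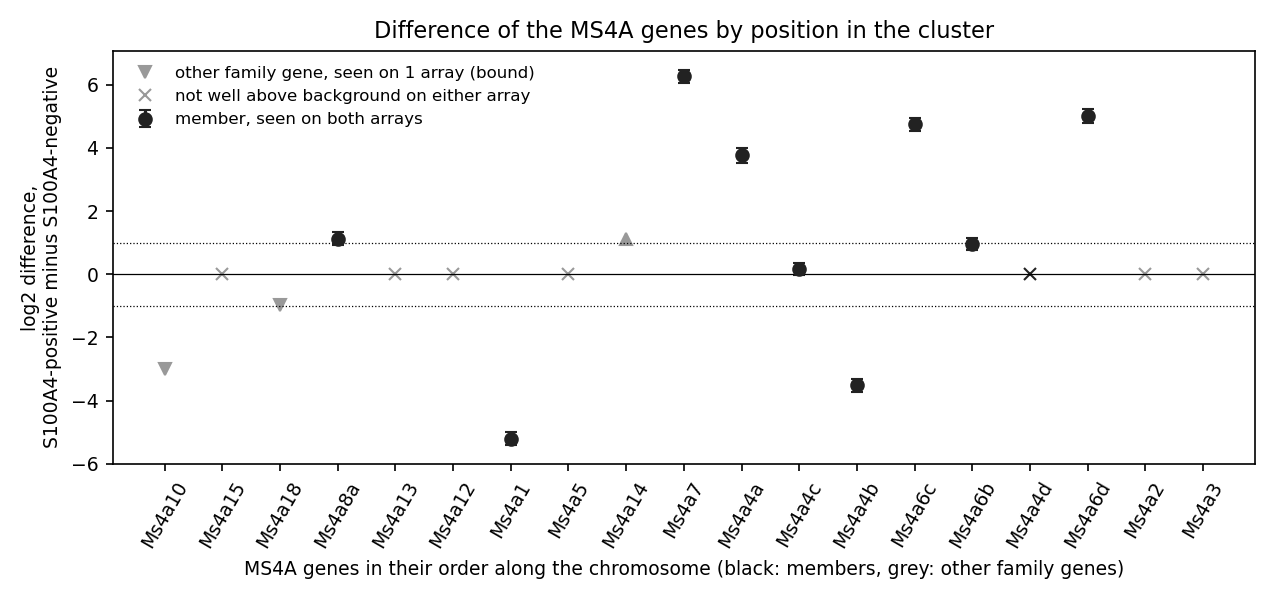
Log2 difference, S100A4-positive minus S100A4-negative (vertical axis), of MS4A genes placed in their order along chromosome 19 (horizontal axis, not to scale), with members in black, other family genes in grey, triangles for bounds, scanner error as bars and dotted lines at 2-fold. Crosses are drawn at 0 only to mark genes not well above background on either array, and Ms4a1 at -5.21 lies between genes that are higher or undetected. The point of Ms4a4c rests on the TG repeat probe.

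Close relatives within the family differed from each other. Ms4a6c exceeded Ms4a6b by 3.79 ± 0.29 in log2 difference, a 13.9-fold gap between their fold changes. Ms4a6d exceeded Ms4a6b by 4.04 ± 0.30, and Ms4a4a exceeded Ms4a4b by 7.28 ± 0.31. These gaps between differences do not depend on how the arrays are scaled by a constant.

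RefSeq promoter windows of GRCm38.p6, each with 250 bases before and 50 after a gene's start, were matched for 8 members, with 9 windows in all since Ms4a7 has a pair of starts. Ms4a1 and Ms4a6d were not matched. Among the 36 pairs of windows, 2 pairs aligned over most of their length. The windows of Ms4a6c (chr19:11469118-11469417, plus strand) and Ms4a6b (chr19:11518309-11518608, plus strand) were 82.5% identical over 234 aligned columns. Those of Ms4a4c and Ms4a4b were 89.3% identical over 178 columns. The Ms4a6 pair is shown because these genes share promoter sequence while their fold changes differ 13.9-fold, with capitals for matches to the interferon response motif GAAANNGAA.
Ms4a6c: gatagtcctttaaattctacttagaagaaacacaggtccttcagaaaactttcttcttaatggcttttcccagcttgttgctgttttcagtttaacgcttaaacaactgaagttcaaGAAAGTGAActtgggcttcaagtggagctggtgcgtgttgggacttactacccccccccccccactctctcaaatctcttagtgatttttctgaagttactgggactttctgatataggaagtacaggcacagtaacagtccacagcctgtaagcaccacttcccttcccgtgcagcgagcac
Ms4a6b: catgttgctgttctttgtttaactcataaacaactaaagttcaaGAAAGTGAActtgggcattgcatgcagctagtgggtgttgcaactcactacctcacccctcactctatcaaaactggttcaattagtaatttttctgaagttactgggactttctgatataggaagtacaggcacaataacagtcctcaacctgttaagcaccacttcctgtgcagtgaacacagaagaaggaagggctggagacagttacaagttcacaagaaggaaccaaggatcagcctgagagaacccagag

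Both windows hold the same match, GAAAGTGAA, starting at base -133 relative to the gene's start in Ms4a6c and at base -206 in Ms4a6b. This motif was searched on both strands, as were 3 others, and no match overlapped a match of another motif. GAAANNGAA occurred in 4 of the 9 member windows, those of Ms4a6c and Ms4a6b and both of Ms4a7, and in 8.56% of 32851 promoter windows. The AP-1 motif TGANTCA occurred in 3 windows, of Ms4a4b, Ms4a7 and Ms4a8a, and in 7.81% of all. The octamer ATGCAAAT occurred in 1, that of Ms4a4c, and in 1.74% of all, and the PU.1-type motif GAGGAAGT in 0, and in 3.20% of all. The 9 windows are not independent, since 2 pairs share their sequence, and a match is a description of letters only.

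Other genes of the family and its relatives were listed as well, and 11 of 12 were found on the array. Tmem176a and Tmem176b, which encode related membrane proteins known from dendritic cells, were both higher in the positive cells. Tmem176a had a signal of 4996 in S100A4-positive cells and 126 in S100A4-negative cells, a difference of 5.94 ± 0.21. Tmem176b had 37798 in positive and 1826 in negative cells, a difference of 5.01 ± 0.20. Ms4a14 was well above background in positive cells alone, and dim, with 22.6 in positive and 6.48 in negative cells. It was at least 2.17-fold higher, a bound near the 2-fold size, and the scanner error of its log2 difference was 0.83. Ms4a10 was well above background in negative cells alone, with 15.7 in positive and 193 in negative cells. Its bound, a difference of -2.98 ± 0.40 (7.91-fold lower), rests on the dim signal itself. Ms4a18 was seen in negative cells alone and at least 1.95-fold lower, while Ms4a2, Ms4a3, Ms4a5, Ms4a12, Ms4a13 and Ms4a15 were not well above background on either array. Such a bound sets the bright array's value against what the dim array could still have read, which is its faintest detected signal or, where larger, the signal of the probe itself.

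Genes listed by role as partners of MS4A proteins differed in both directions too. Whether each of their products works with an MS4A protein was not tested. Of 15 listed partners 14 were measured, 6 at least 2-fold higher, 4 at least 2-fold lower and 4 within 2-fold. Among all 15278 measured genes, 21.4% passed 2-fold towards the positive cells and 17.0% towards the negative cells. Whether the 14 partners exceed those shares was not tested. The 4 lower partners were on the B cell side. Cd79a, a signalling chain of the B cell receptor, read 35.4 in positive cells and 3870 in negative cells, a difference of -6.14 ± 0.24. Cr2, a complement receptor of B cells, differed by -5.62 and Cd79b, the other signalling chain, by -3.48. Cd81 and Cd40, which other cells also carry, lay within 2-fold at 0.51 and 0.74.

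On the macrophage side, Clec7a, which encodes dectin-1, read 45672 in S100A4-positive cells and 260 in S100A4-negative cells, a difference of 8.09 ± 0.20. The adaptor Tyrobp differed by 4.79, Trem2, a lipid-sensing receptor, was seen in positive cells alone and at least 27.0-fold higher, and the kinase Syk lay within 2-fold at -0.56. Of the IgE receptor, the gamma chain Fcer1g, which other Fc receptors also use, differed by 4.14, whereas the alpha chain Fcer1a and the beta chain Ms4a2 were not well above background on either array. The calcium channel Orai1 differed by 1.07 and its sensor Stim1 by -0.47. Tnfrsf18, the GITR receptor of T cells with which the Ms4a4b protein associates, differed by 1.12, the opposite direction to Ms4a4b. Orai1 and Tnfrsf18, counted among the higher partners, both lie within their scanner error of 2-fold.

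Marker genes of B cells, T cells and macrophages moved in the same direction as some members known from those cells. Their part in the member differences was not tested. All 12 B cell markers were at least 2-fold lower in positive cells, with a median difference of -5.47, near the -5.21 of Ms4a1. Their summed signal was 26.2 times the array's 75th percentile in S100A4-positive cells and 518 times in S100A4-negative cells, and Pax5, which defines the lineage, was seen in negative cells alone. Of 12 T cell markers 9 were at least 2-fold lower and 0 higher, with a median of -3.14 and sums of 30.8 in positive and 171 in negative cells. The value of Ms4a4b, -3.52, lay close to that median.

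All 13 macrophage and monocyte markers were higher by at least 2-fold. Their median difference was 5.57, with sums of 595 in positive and 9.42 in negative cells. Fcgr1, Mertk and Mrc1 were seen in positive cells alone. Ms4a7 at 6.27, Ms4a6d at 5.00, Ms4a6c at 4.75 and Ms4a4a at 3.76 lay within the range of that list, which ran between 2.55 and 7.13. Ms4a8a at 1.13 lay below that range. All 7 measured classical dendritic cell markers were also higher, with a median of 5.96, so the lists do not tell which of the lineages carried these members. Xcr1 was not well above background on either array. Of the mast cell and basophil markers 4 of 7 were measured, with Fcer1a, Mcpt8 and Ms4a2 not well above background on either array. At least 2-fold higher were 3 of those measured, Kit at 3.93, Hdc at 1.44 and Cpa3 at 1.17, and Mcpt1, seen in negative cells alone, was at least 17.1-fold lower. A second, dimmer Hdc probe seen on both arrays gave 0.08 ± 0.37. Cpa3 was dim, with 44.7 in positive and 30.9 in negative cells, and lay within its scanner error of 2-fold. Epithelial markers were at least 2-fold lower in 6 of 8, with a median of -3.11. Cdh1 went the other way, at 1.52 ± 0.21, and Epcam lay within 2-fold at -0.91.

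**Figure D3:**
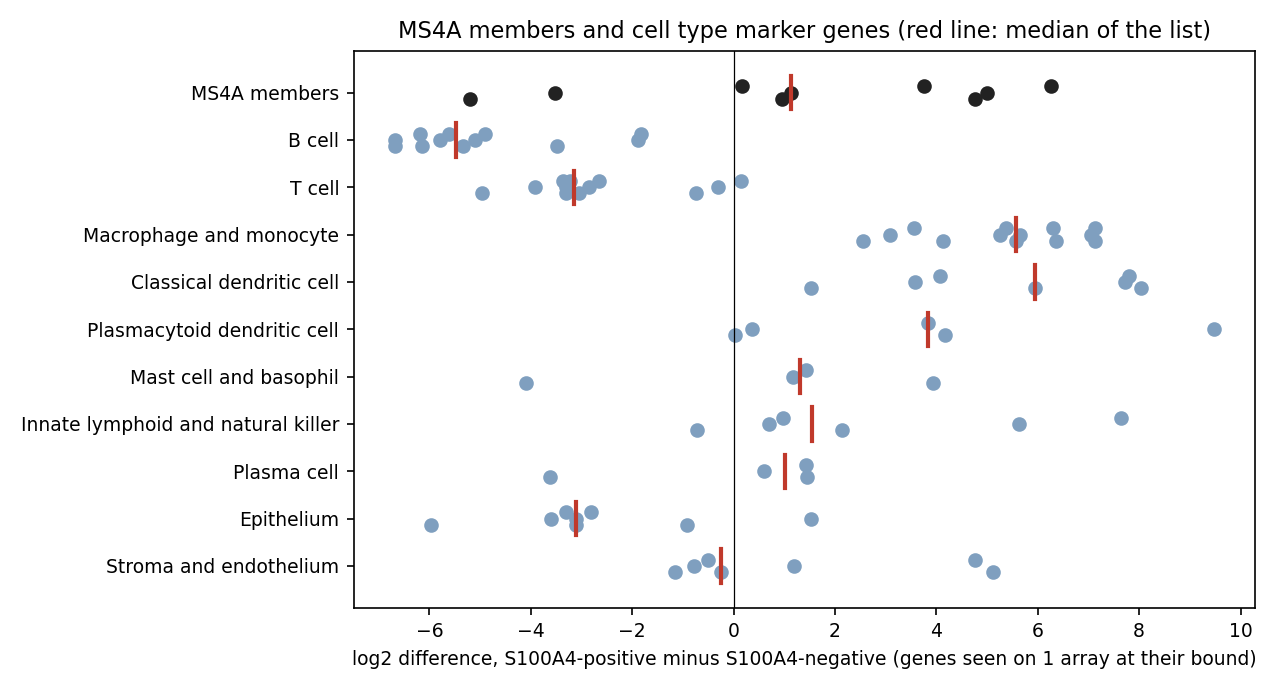
Log2 difference, S100A4-positive minus S100A4-negative (horizontal axis), of each measured MS4A member (black points) and of each gene of 10 marker lists (blue points), with genes seen on 1 array at their bound and a red line at each median. The B cell median is -5.47 and the macrophage and monocyte median 5.57, and the members reach towards both. The black points and their median include Ms4a4c, which rests on the TG repeat probe.

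For the 2 members with the largest difference in each direction, the genes with the closest values on the 2 arrays were listed by their distance in centred log2 signal. Such closeness rests on 2 arrays alone. Nearest to Ms4a1 were Vpreb3, a gene of B cell development, with a difference of -5.46, and Gzma, which encodes granzyme A, at -6.59. Nearest to Ms4a4b were Nkg7, a gene of cytotoxic granules, at -3.77, Cd3g, a chain of the T cell receptor complex, at -3.31, and Sbk1 at -3.22. Nearest to Ms4a7 were the chemokine gene Cxcl16 at 6.44, Slc6a13 at 6.53 and Clec4n, which encodes dectin-2, at 6.62. Nearest to Ms4a6d were the transcription factor gene Mitf at 4.73, Zc3h12c at 5.26 and Dnase1l3 at 4.72.

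The direction of 6 members, Ms4a1, Ms4a4a, Ms4a4b, Ms4a6c, Ms4a6d and Ms4a7, and their place past 2-fold held under all 11 alternatives run, 4 of them higher and 2 lower. Not all of these alternatives could move a member, since the stricter filter, no filter and kept outlier spots left every measured member as reported. Scaling on the spike-in controls, which were 3.69-fold brighter on the positive array, moved all members down by 2.52. Under it the median over all genes moved by -2.47, and the direction of Ms4a8a, Ms4a6b and Ms4a4c turned to lower in positive cells. Of all genes past 2-fold, 4.44% were then higher in positive cells, against 26.9% with no scaling and 55.7% with the 75th percentile. A shift by a constant leaves the order of the members as it is.

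**Figure D4:**
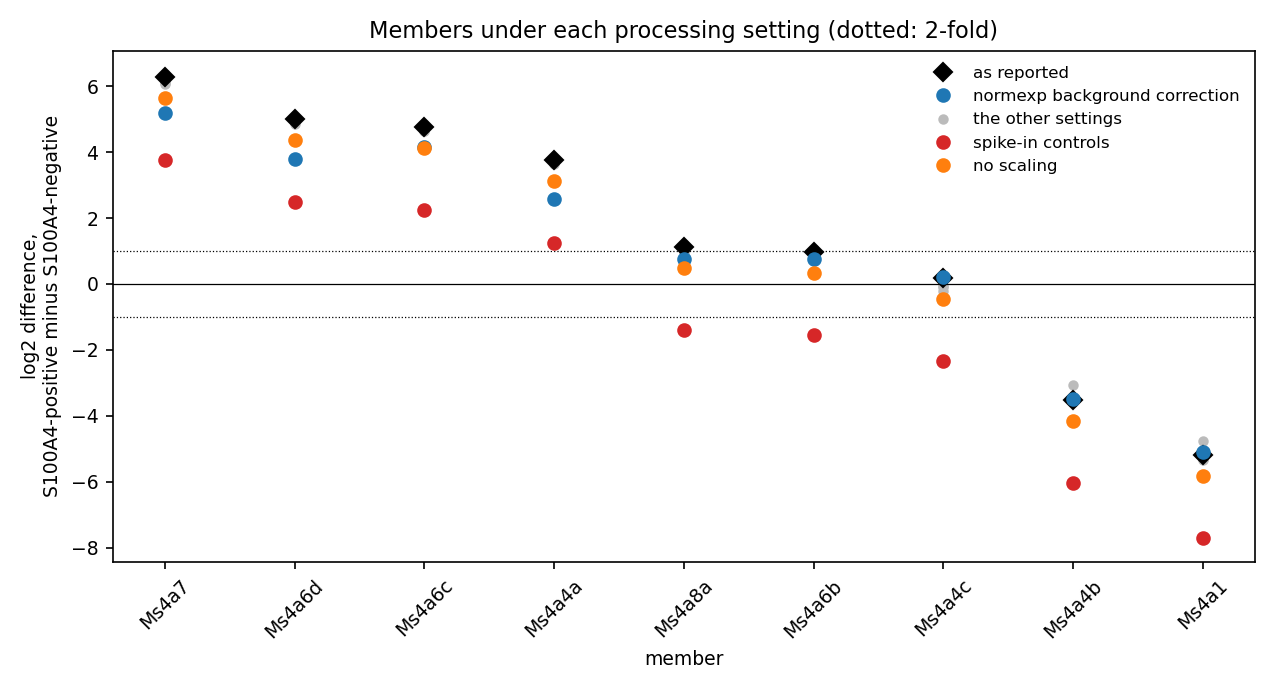
Log2 difference, S100A4-positive minus S100A4-negative (vertical axis), of each measured member (horizontal axis) under each processing setting, with dotted lines at 2-fold. Ms4a7 ran between 3.75 and 6.37 and Ms4a1 between -7.72 and -4.77 over all settings, and the lowest points of each gene are those of spike-in scaling.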

How the data were processed

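Total RNA was amplified with a low-input kit, labelled with Cy3 and hybridised to 1-colour Agilent arrays (design 74809), per the labels' protocols. Feature Extraction 10.7.1.1 made the deposited intensity values, per the file headers, while the submitters' processing notes name 9.5.1.1. These processed intensities were background-subtracted and not normalized between arrays; both arrays lay on 1 slide with 1 scan time. The deposited flags for spots above background or outlying were taken as given, and the deposited value table, also intensity, served as an alternative.

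Outlier spots (80 positive, 138 negative) and controls were left out, replicated probes averaged, and log2 signals centred on each array's 75th percentile over 59305 spots. A gene took its probe with the highest mean signal among those well above background on at least 1 array. The 290 probes spotted 10 times had a median spot SD of 0.04 on the positive and 0.10 on the negative array (log2). The named genes are all members with every probe, listed relatives and partners, and the 3 genes nearest to each of the 2 members with the largest difference in each direction. Members and lists were chosen with earlier results of these data known. Protein features were not analysed here. One gene that these rules take is not reported here. Steps were tested on simulated data and run in Python 3.11.15 with pandas 2.3.3 and limma 3.58.1 in R 4.3.3. Alternatives were normexp (offset 50), quantile, cyclic loess, other percentile, spike-in and no scaling, stricter and no filters, outlier spots kept, the median over probes, the deposited table and a 4-fold size.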

Additional observations from a re-analysis of the deposited data

How the results depend on the processing

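With 1 array per group, the number of arrays limits the precision, and dim probes such as Ms4a4d give no value. No paired analysis was possible because each group has 1 array and no test was made. Members at least 2-fold higher numbered 4 to 6 over the alternatives, and members at least 2-fold lower numbered 2 under all but spike-in scaling, which gave 5. Those 5 include Ms4a4c. With that scaling, 12707 of the 15278 measured genes passed 2-fold towards the negative cells and 591 towards the positive cells. The rise from 2 to 5 is therefore not particular to the members. Under spike-in scaling Ms4a8a reversed to -1.39. The spike-in scale differs from the 75th percentile by a constant of -2.52, and the cause of that gap was not tested. Of 99 recomputed member differences, 70 moved by less than their error. Many of these could not move, since the stricter filter, no filter and kept outlier spots left every measured member as reported. The sign changed in 7, of Ms4a8a and Ms4a6b under spike-in scaling and of Ms4a4c under spike-in scaling, no scaling, quantile normalization, cyclic loess and the deposited table, and Ms4a8a was the only one of these genes past 2-fold as reported. Ms4a4c, whose probe holds a TG repeat, ran between -2.35 and 0.22.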
